A study of Mus musculus with 6 samples.

Results

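Box C/D small nucleolar RNAs (snoRNAs) were taken as all rows of the deposited count table whose gene symbol begins with Snord and a digit, which gave 69 of 22477 rows. The table holds poly(A)-selected RNA-seq counts from mice that develop small cell lung cancer once Cre recombinase has removed Rb1 and p53 (Rb1 fl/fl, p53 fl/fl) and switched on Myc T58A, a stabilized form of Myc (Myc lsl/lsl). Cre came from the adenovirus Ad5CGRP-Cre, given into the trachea at 8 weeks of age, and its CGRP promoter directs Cre to pulmonary neuroendocrine cells. The 2 libraries labelled normal lung tissue (normal 1 and 2) and the 4 labelled tumor (tumor 3 to 6) share this genotype and this virus in the labels, came from separate mice and form 1 batch. The labels describe arms with entinostat and anti-PD-1 antibody but assign no arm to these libraries, and the labels give no age at collection. Tumors were compared with normal lung.

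Box C/D snoRNAs are short nucleolar RNAs that pair with ribosomal RNA and guide its ribose methylation, which is carried out by fibrillarin (Fbl) in a particle with Nop56, Nop58 and Nhp2l1. A few, such as U22 (Snord22), take part in cleavage of the ribosomal RNA precursor instead. Most are cut out of introns of host genes, many of which encode ribosomal or nucleolar proteins, and they carry no poly(A) tail, so that poly(A) selection disfavours them and their counts depend on what passed the selection.

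The sequences of 8 members that the results turn on are given first, as GENCODE vM21 (GRCm38) transcripts read 5′ to 3′ in DNA letters. Snord17, Snord22 and Snord15b held most of the counts, Snord15a is the partner of Snord15b in the same host, Snord69 had a fold change among the highest, Snord104 had no host gene in GENCODE, Snord64 lies in an imprinted cluster, and Snord123 was lower in every tumor. Capitals mark TGATGA, the core of box C, within the first 25 bases and CTGA, box D, within the last 20 bases.
Snord17: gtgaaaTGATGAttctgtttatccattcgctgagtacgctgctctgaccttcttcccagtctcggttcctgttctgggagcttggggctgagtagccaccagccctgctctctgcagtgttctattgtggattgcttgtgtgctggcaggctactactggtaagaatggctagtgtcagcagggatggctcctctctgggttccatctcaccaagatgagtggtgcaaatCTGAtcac
Snord22: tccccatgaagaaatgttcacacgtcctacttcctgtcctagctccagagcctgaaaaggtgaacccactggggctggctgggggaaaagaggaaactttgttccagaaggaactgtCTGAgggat
Snord15b: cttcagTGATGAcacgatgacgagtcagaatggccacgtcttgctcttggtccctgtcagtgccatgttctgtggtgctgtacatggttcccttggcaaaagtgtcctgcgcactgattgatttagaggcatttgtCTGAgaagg
Snord15a: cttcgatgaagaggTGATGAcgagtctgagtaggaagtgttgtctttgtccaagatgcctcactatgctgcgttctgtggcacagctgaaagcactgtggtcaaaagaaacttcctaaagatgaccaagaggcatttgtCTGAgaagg
Snord69: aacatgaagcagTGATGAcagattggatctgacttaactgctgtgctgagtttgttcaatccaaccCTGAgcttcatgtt
Snord104: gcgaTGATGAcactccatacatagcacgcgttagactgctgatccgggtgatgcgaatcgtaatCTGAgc
Snord64: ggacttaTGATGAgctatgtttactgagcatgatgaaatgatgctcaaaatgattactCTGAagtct
Snord123: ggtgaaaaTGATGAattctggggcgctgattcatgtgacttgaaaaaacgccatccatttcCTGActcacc
TGATGA stood in that first window in 43 of the 68 members with a GENCODE sequence (63.2%) and CTGA in the last window in 66 (97.1%). In 42 H/ACA snoRNAs, the class that guides pseudouridylation, the same windows held TGATGA in 0 and CTGA in 5 (11.9%). On the opposite strand TGATGA occurred anywhere in 1 of the 68 members and CTGA in 21, and the motifs can share the letters TGA where they adjoin. Snord22 has no TGATGA, so only its box D is marked. Members were 64 to 238 bases long.

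Box C/D snoRNA rows took 0.00316% and 0.00639% of all counts in normal 1 and 2, and 0.111%, 0.159%, 0.109% and 0.101% in tumors 3 to 6. Every tumor was above both normal libraries, and normal 2 was above normal 1. These shares correspond to 3133 and 5822 counts in the normal libraries and 66213 to 87023 counts in the tumors, although library totals were larger in normal lung (99122494 and 91049413) than in tumors (54735438 to 70817440). Markers fixed for the labelled tissue followed the labels, with 6 of 6 neuroendocrine genes higher in tumors and 7 of 7 normal lung genes and 4 of 4 immune genes lower. In bulk tissue, a different number of cells with a given RNA and a different amount of that RNA per cell cannot be told apart. Each library is 1 mouse, so p-values measure the spread between these mice.

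Of the 69 members, 65 had enough counts to be tested, and tumors were above normal lung in 63 of these and below it in 0 (quasi-likelihood test of edgeR, Benjamini-Hochberg adjusted p under 0.05 over 18027 genes). Over all genes tested 31.3% were higher and 32.6% lower. Of the 65, 29 passed the filter on low counts in both normal libraries and 36 passed only through the tumors, so that the filter favours members that are high in tumors. Without the filter all 69 members entered the fit, with 62 higher and 0 lower, against 25.2% of all genes higher and 27.1% lower. The 2 tested members that did not pass were Snord35b and Snord71. DESeq2 also called 63 members higher and 0 lower, with 33.5% of its genes higher and 31.3% lower.

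The size of the difference was large for most members. The median log2 fold change of the 65 tested members was 4.12, with a range of 0.67 to 6.91, beside a median of 0.015 over all genes tested. For 37 members the log2 fold change was at least 4, which is 16-fold, and for 4 members it was under 2. All 4 tumors lay above both normal libraries for 63 members, which held for 37.4% of all genes tested. The median was 3.82 without normal 1 and 4.68 without normal 2. With either normal library left out, fewer members were called higher, and so were fewer of all genes.

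**Figure D1:**
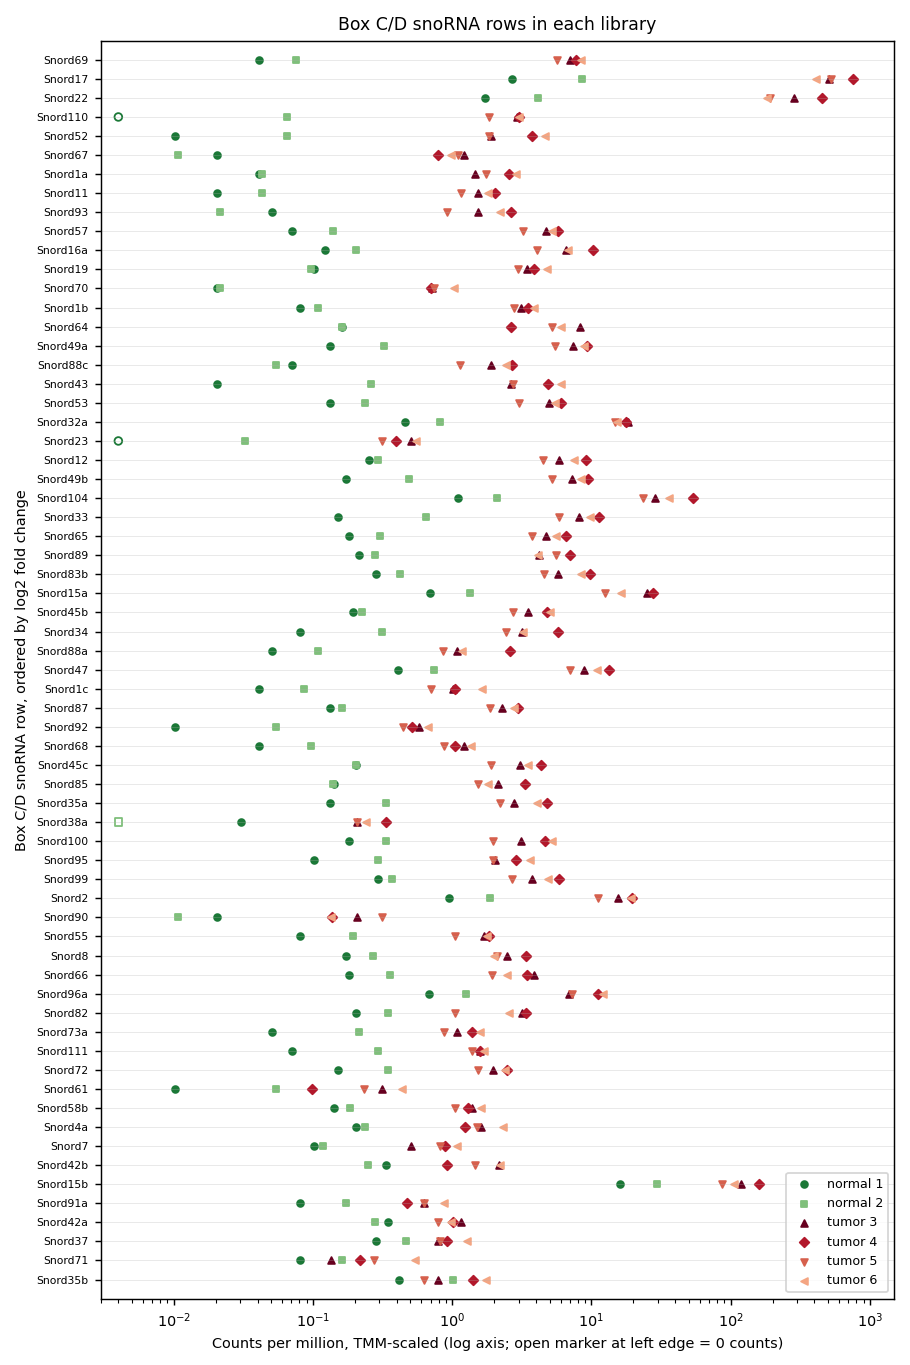
TMM-scaled CPM (log axis) of the 65 tested box C/D snoRNA rows in each library, ordered by log2 fold change; green symbols are the 2 normal lung libraries, red symbols the 4 tumors, and open symbols at the left edge stand for 0 counts. The symbols of the normal libraries lie left of all tumor symbols except in the bottom rows, Snord71 and Snord35b.

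Snord17, a long box C/D snoRNA from an intron of Snx5, a sorting nexin gene, was the most abundant member in tumors. Its level in CPM, the count scaled to a common library size by TMM, was 2.70 and 8.56 in normal 1 and 2 and 512, 757, 522 and 409 in tumors 3 to 6. The tumors were all far above the normal libraries, and the normal pair differed by a larger factor than any pair of tumors. Snord17 was higher in tumors, with a log2 fold change and SE of 6.61 ± 0.66 (adjusted p = 0.000285). Its value was 5.99 without normal 1 and 7.65 without normal 2. Snx5 also rose, by far less, with 105 and 108 CPM in normal lung, 147 to 232 CPM in tumors and a log2 fold change of 0.73 ± 0.22 (adjusted p = 0.0229). Counts of Snord17 were 2.57% and 7.90% of the Snx5 counts in the normal libraries and 301%, 326%, 354% and 255% in tumors 3 to 6. Snord17 overlaps no exon of the 8 Snx5 transcripts of GENCODE.

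Snord22, the U22 RNA needed for maturation of the small ribosomal subunit RNA, comes from Snhg1, a non-coding host of several snoRNAs. It was at 1.73 and 4.10 CPM in normal lung and 286, 451, 192 and 181 CPM in tumors 3 to 6. No tumor came near the normal range, with tumor 4 highest and tumors 5 and 6 lowest. The log2 fold change was 6.57 ± 0.69 (adjusted p = 0.000337). It was 6.07 without normal 1 and 7.31 without normal 2. Snhg1 itself had a log2 fold change of 4.45 ± 0.33 (adjusted p = 0.000102). Snord22 counts were 15.1% and 27.7% of Snhg1 counts in normal lung and 121%, 134%, 88.7% and 50.3% in tumors. Snord22 overlaps an exon in 5 of 18 Snhg1 transcripts, so reads of the host and of the snoRNA cannot be fully separated in these counts.

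Snord15a and Snord15b, both guides for the large ribosomal subunit RNA, lie in the same host, Rps3, a ribosomal protein gene. Snord15b was by far the highest member in normal lung, at 16.1 and 29.8 CPM, and stood at 119, 161, 86.3 and 105 CPM in tumors. Snord15a was at 0.691 and 1.35 CPM in normal lung and 25.1, 27.5, 12.5 and 16.3 CPM in tumors. For both RNAs each tumor was above each normal library. The log2 fold change was 2.36 ± 0.37 for Snord15b (adjusted p = 0.00171), 4.32 ± 0.53 for Snord15a (adjusted p = 0.000632) and 2.78 ± 0.29 for Rps3 (adjusted p = 0.000328). There were 23.2 and 22.1 Snord15b counts for each Snord15a count in normal lung and 4.73, 5.84, 6.88 and 6.43 in tumors. The log2 ratio was lower in tumors by 1.94 without overlap of the groups (exact two-sided permutation test, p = 0.133, the smallest value of the test as run here). Their sequences, shown above, are 66.0% identical over the alignment. Snord15b overlaps an exon of 1 of 5 Rps3 transcripts and Snord15a of 0. Snord15b counts were 3.56% and 6.06% of Rps3 counts in normal lung and 3.26%, 4.17%, 3.59% and 3.46% in tumors. For Snord15a these shares were 0.153% and 0.275% in normal lung and 0.690%, 0.714%, 0.522% and 0.538% in tumors. Per length of RNA, Snord15b stood at 1.10 and 1.87 times Rps3 in normal lung and 1.01 to 1.29 times in tumors. How many reads of the Snord15b row came from Rps3 was not tested.

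These RNAs dominated the total. Snord17, Snord22 and Snord15b together held 64.3% and 67.5% of box C/D counts in normal 1 and 2 and 78.1%, 80.1%, 80.6% and 70.2% in tumors 3 to 6. Without them the remaining members summed to 11.3 and 20.4 CPM in normal lung and 257, 340, 192 and 295 CPM in tumors. The gap between groups therefore did not rest on those 3 rows. Per kilobase of RNA, mean tumor levels were 2310 CPM for Snord17, 2204 for Snord22, 811 for Snord15b, 508 for Snord104, 237 for Snord2 and 199 for Snord32a. The normal means per kilobase of the same RNAs were 23.7, 23.1, 158, 22.9, 20.4 and 7.69 CPM, so the order in normal lung put Snord15b first.

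Snord69 lies in Gnl3, which encodes the nucleolar GTPase nucleostemin, and overlaps an exon in 2 of 14 Gnl3 transcripts. Its log2 fold change was the highest of the tested members, although other members ranked first when either normal library was left out and under limma voom. It was at 0.0406 and 0.0755 CPM in normal lung and 7.03, 7.70, 5.65 and 8.35 CPM in tumors. Tumors varied little, and the normal values rest on 4 and 7 counts. The log2 fold change was 6.91 ± 0.51 (adjusted p = 9.4e-05), against 3.93 ± 0.36 for Gnl3 (adjusted p = 0.000204). Snord19, in the same host, had a log2 fold change of 5.23 ± 0.47 (adjusted p = 0.00019).

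Members in genes of nucleolar proteins, Snord69 and Snord19 included, numbered 11. All 11 were higher, with a median log2 fold change of 5.15, and 6 of their 7 hosts were higher. Beside this and each host class below, 63 of all 65 tested members and 31.3% of all genes tested were higher. In Nop56, a core protein of the box C/D particle, Snord57 had a log2 fold change of 5.46 ± 0.56 (adjusted p = 0.00031). Snord110, also in Nop56, was at 0 and 0.0647 CPM in normal lung and 1.85 to 3.04 CPM in tumors, and its log2 fold change of 6.33 was 5.34 without normal 1. Without normal 2 it was 10.6, a fitted value against a lone library at 0 counts, which depends on the prior count and gives no bound. In Nop58, another core protein, Snord11 and Snord70 had log2 fold changes of 5.61 and 5.15 beside 3.25 for the host. In Wdr43, a factor of early ribosome assembly, Snord53 had a log2 fold change of 4.71 ± 0.55 (adjusted p = 0.000496).

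Members in genes of ribosomal proteins and translation factors numbered 25, of which 24 were higher, with a median log2 fold change of 3.54. Rpl13a, a ribosomal protein gene, holds 4 of them, and these are known for a part in the response to lipid stress. Snord32a was at 0.457 and 0.820 CPM in normal lung and 18.4, 17.8, 14.7 and 15.2 CPM in tumors. The tumors lay close together and far above both normal libraries. Its log2 fold change was 4.69 ± 0.38 (adjusted p = 0.000131). Snord33, Snord34 and Snord35a followed at 4.45, 4.20 and 3.89, beside 3.13 for Rpl13a. Without normal 2 these 3 values were 5.81, 5.44 and 4.68, and without normal 1 they were 3.74, 3.52 and 3.35. Snord16a in Rpl4 reached 5.39 ± 0.60 (adjusted p = 0.000431) where the host reached 1.62, while Snord96a in Gnb2l1, a ribosome-associated scaffold gene, had 3.27 ± 0.47 (adjusted p = 0.00119) beside 2.48. Snord83b in Rpl3 had 4.33 ± 0.52 (adjusted p = 0.000568).

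Of 18 members in non-coding hosts 15 were tested and all of these were higher, with a median log2 fold change of 4.52. The 3 that did not pass the filter were Snord123, which had fewer counts in every tumor than in either normal library, and 2 rows named after Snord116. Snord47, in the growth arrest transcript Gas5, was at 0.406 and 0.744 CPM in normal lung and 8.90, 13.4, 7.01 and 10.9 CPM in tumors. The lowest tumor was well above both normal libraries, and the log2 fold change was 4.12 ± 0.49 (adjusted p = 0.000519) beside 3.03 for Gas5. Snord49a, Snord49b and Snord65 share the host 2410006H16Rik, whose log2 fold change was 4.05, and had 5.08, 4.52 and 4.40. The first 2 of these were 4.56 and 3.95 without normal 1, and 5.84 and 5.43 without normal 2. Snord1a, Snord1b and Snord1c in 1810032O08Rik had 5.63, 5.10 and 4.08 beside 4.27 for the host, so that the last was below it. Snord1b and Snord1c are 97.4% identical, and their reads may have been split between them. Snord12, in the non-coding Zfas1 gene (in the table as 1500012F01Rik), had 4.63 ± 0.48 (adjusted p = 0.000323), close to 4.71 for the host. Snord89, whose GENCODE host has no row here, had 4.39 ± 0.46 (adjusted p = 0.000348). Snord104, which has no GENCODE host but lies within the span of Gm36220 in RefSeq, was at 1.10 and 2.10 CPM in normal lung and 28.8, 53.9, 23.6 and 35.9 CPM in tumors, with a log2 fold change of 4.47 ± 0.52 (adjusted p = 0.000487).

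The remaining 13 members lie in other coding genes, with 12 higher and a median log2 fold change of 3.96, and include Snord17 and Snord64, whose GENCODE host Gm38393 has no row here. Their hosts had a median of only 1.03, with 7 of 10 higher. Snord67, in the microtubule gene Ckap5, had 3 counts in both normal libraries together and a count ratio of tumor to normal of 65.7 per unit of library size (95% exact interval 22.3 to 321, counting error only).

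Rows of imprinted snoRNAs were Snord64, from the Prader-Willi syndrome region, and 3 named after Snord116. The 3 rows named after Snord116, the repeated snoRNA of that region, each had 1 count, in tumor 4, and 0 in the other libraries. Snord64 was at 0.163 and 0.162 CPM in normal lung and 8.34, 2.65, 5.17 and 6.04 CPM in tumors. Every tumor was above both normal libraries, and tumor 4, the highest tumor for 33 members, was the lowest here. The log2 fold change was 5.08 ± 0.64 (adjusted p = 0.000657). The RefSeq annotation of GRCm38 places Snord64 within Snhg14, the long imprinted host transcript, which was at 1.96 and 3.12 CPM in normal lung and 119, 37.5, 76.4 and 87.5 CPM in tumors, in the same order among tumors. Counts of Snord64 were 8.29% and 5.19% of Snhg14 counts in normal lung and 6.77% to 7.06% in tumors, between both normal values. Snord64 overlaps an exon in 1 of 4 transcripts of its GENCODE host Gm38393. Reads of a surrounding transcript and of the snoRNA therefore cannot be fully separated in these counts.

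**Figure D2:**
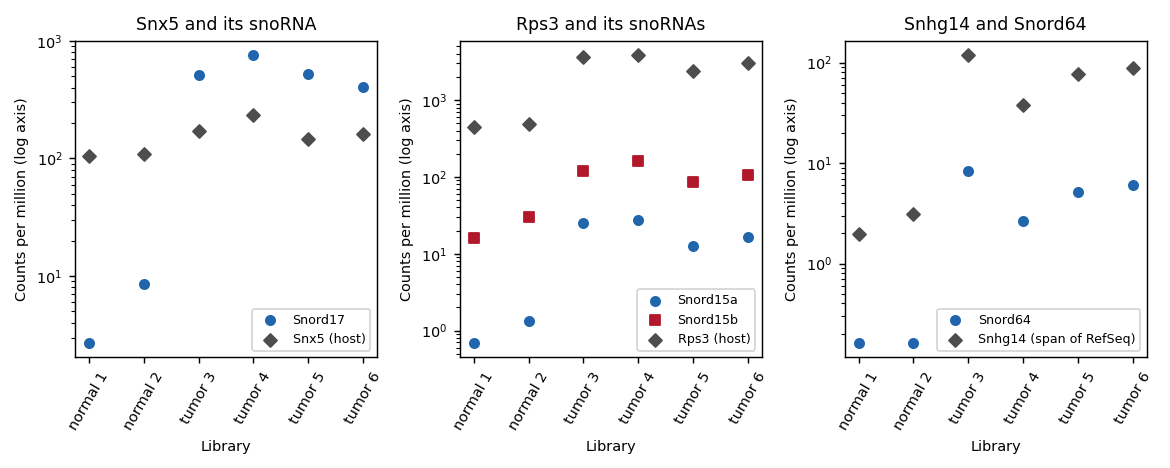
CPM (log axis) of 4 box C/D snoRNAs and of the genes around them in each library, with circles and squares for snoRNAs and diamonds for the surrounding gene. Snord17 crosses from below to above Snx5 between normal lung and tumors, Snord15a and Snord15b lie closer together in tumors, and Snord64 runs parallel to Snhg14.

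Host genes were compared as a group. GENCODE places 67 members inside 47 hosts, of which 45 have a row. Of these rows 36 were higher, 2 lower and 7 not called, with a median log2 fold change of 2.34. Over all genes tested 31.3% were higher and 32.6% lower, with a median of 0.015. The 2 lower hosts were Snhg18 and Ap1g1, and Ap1g1 lost its call without either normal library or without tumor 3, 4 or 6, and under 6 of the other alternatives. Of 62 members with a tested host, 56 had a higher log2 fold change than the host and 6 a value at or below it, with a median difference of 1.34 and a range of -1.41 to 5.88. That median was 1.17 without normal 1 and 1.98 without normal 2. It was 1.30 without the filter on low counts, which 36 of the 65 tested members passed only through the tumors. Across the 62 members, which share 43 hosts and the same libraries, the log2 fold changes of member and host had a Pearson correlation of 0.497 and a Spearman correlation of 0.521. The log2 fold changes of members that share a host had a median range of 0.744 within the 14 hosts that hold 2 or more tested members.

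For 7 members the snoRNA was higher and the host was not called. Snord2, in the translation factor gene Eif4a2, was at 0.955 and 1.86 CPM in normal lung and 15.5, 19.5, 11.2 and 19.3 CPM in tumors. All tumors were well above normal lung, with a log2 fold change of 3.54 ± 0.44 (adjusted p = 0.000656) beside 0.56 ± 0.28 for Eif4a2 (adjusted p = 0.125). Snord66 in Eif4g1 had 3.43 beside 0.22, and Snord8 in the chromatin remodeller gene Chd8 had 3.48 beside 0.27. Snord2 overlaps an exon in 3 of 25 Eif4a2 transcripts and Snord66 in 1 of 25 Eif4g1 transcripts. Snord8 overlaps no Chd8 exon, but the gene Gm26590 overlaps it on the opposite strand. Snord23, in Nop53 (in the table as Gltscr2), had 3 counts in normal lung and a count ratio of 28.0 (9.34 to 138) beside a host log2 fold change of 0.25. Snord7 in AA465934 had 2.88 beside 2.69 for a host that spread widely within both groups, and did not pass the test without normal 1 (adjusted p = 0.0534). Snord37 in Eef2 had 1.34 beside 0.73, and lost its call in 7 of the alternative fits. Counted per length of RNA, 5 of 65 members exceeded their host in each normal library, and 14, 17, 11 and 15 did so in tumors 3 to 6.

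**Figure D3:**
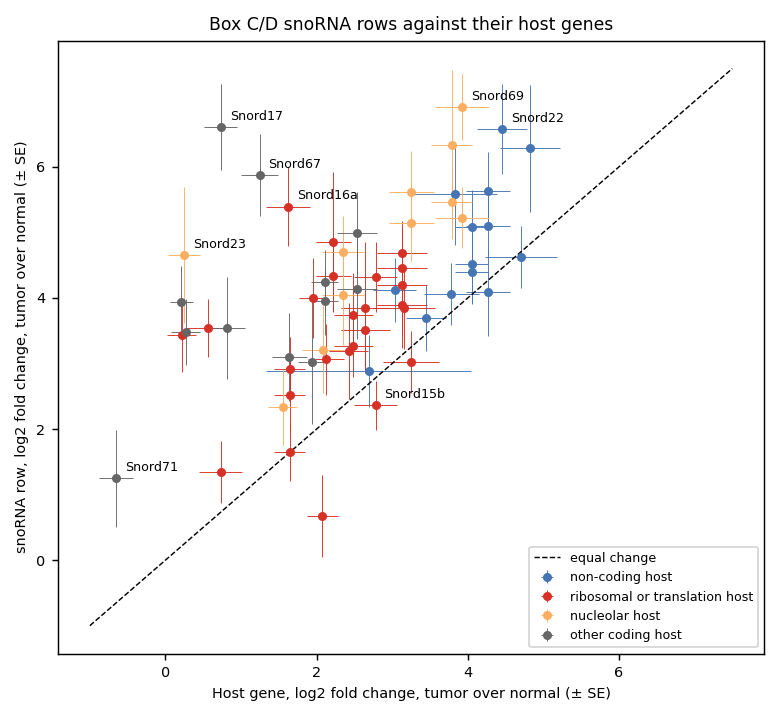
Log2 fold change, tumor over normal lung, of 62 box C/D snoRNA rows (vertical) against that of their host genes (horizontal), with bars of 1 standard error and colours for the kind of host. Most points, 56 of 62, lie above the dashed line of equal change, with Snord17 farthest above it.

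A few members did not follow the rest. Snord35b was at 0.417 and 1.01 CPM in normal lung and 0.790, 1.41, 0.625 and 1.74 CPM in tumors. The groups overlapped, and the log2 fold change of 0.67 ± 0.63 did not pass the test (adjusted p = 0.378). Snord71, in Ap1g1, an adaptor protein gene, was at 0.0813 and 0.162 CPM in normal lung and 0.134, 0.216, 0.274 and 0.539 CPM in tumors. Tumor 3 fell between the normal libraries, and 1.25 ± 0.74 did not pass (adjusted p = 0.177). Ap1g1 was lower at -0.65 ± 0.22 (adjusted p = 0.0391). Snord37 passed narrowly (adjusted p = 0.0438).

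Snord123 ran the other way. It had 13 and 18 counts in normal lung and 6, 3, 2 and 4 in tumors, every tumor being below both normal libraries. It did not pass the filter on low counts, and in the fit without that filter its log2 fold change was -1.49 ± 0.71 (adjusted p = 0.12). Its host Snhg18, a non-coding transcript, was at 16.8 and 16.5 CPM in normal lung and 4.86, 4.69, 4.23 and 3.46 CPM in tumors and was lower with a log2 fold change of -1.95 ± 0.24 (adjusted p = 0.000642).

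The genes for the proteins of the particle were higher as well. All 4 core genes passed the test, by 13.8-fold for Nop56, 9.55-fold for Nop58, 6.24-fold for Fbl, the methyltransferase, and 3.98-fold for Nhp2l1, which binds the kink formed by boxes C and D. Nop56 was at 32.0 and 41.2 CPM in normal lung and 493, 605, 393 and 531 CPM in tumors, with a log2 fold change of 3.79 ± 0.27 (adjusted p = 8.6e-05). Of 20 genes listed for snoRNA assembly and maturation, not all specific to the box C/D particle, 17 were higher and 0 lower. Their median log2 fold change was 1.25. Those of smallest p were Znhit3, an assembly factor, at 2.77, the exosome nuclease Dis3 at 2.38, Larp7 at 1.36 and the nucleolar chaperone Nolc1 at 2.18. A second list held 23 protein genes of the U3 particle, which acts in early rRNA precursor cleavage, and other factors of that process. Of these 23 genes, 20 were higher and 0 lower, with a median of 1.20, led by Utp18, Wdr43, Rcl1 and Wdr3. Over all genes tested 31.3% were higher and 32.6% lower, with a median of 0.015. No member row carries the name of U3 or of the other cleavage snoRNAs Snord118, Snord13 and Snord14, so these were not analysed here.

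Most other sets of RNAs without a poly(A) tail moved in the same direction. All 35 tested H/ACA snoRNA rows, all 9 scaRNA rows, which guide modification of spliceosomal RNAs, and all 3 spliceosomal snRNA rows were higher, as were 65 of 73 histone rows. MicroRNA rows were mixed, with 100 higher and 36 lower of 266 tested, while 644 of 910 rows were not tested. Over all genes tested 31.3% were higher and 32.6% lower. Rpph1 and Rmrp, the RNAs of RNase P and RNase MRP, summed to 0.0736% and 0.230% of counts in the normal pair and 6.12%, 4.88%, 4.30% and 6.66% in the tumors. Rn45s, the rRNA precursor, took 0.164% and 0.320% in normal lung and 7.82%, 6.93%, 1.16% and 2.66% in tumors. In all these sets normal 2 was above normal 1 and each tumor above both. How much tailless RNA passed the poly(A) selection in each library was not measured, so its part in the box C/D result was not tested and cannot be told apart from the tissue.

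**Figure D4:**
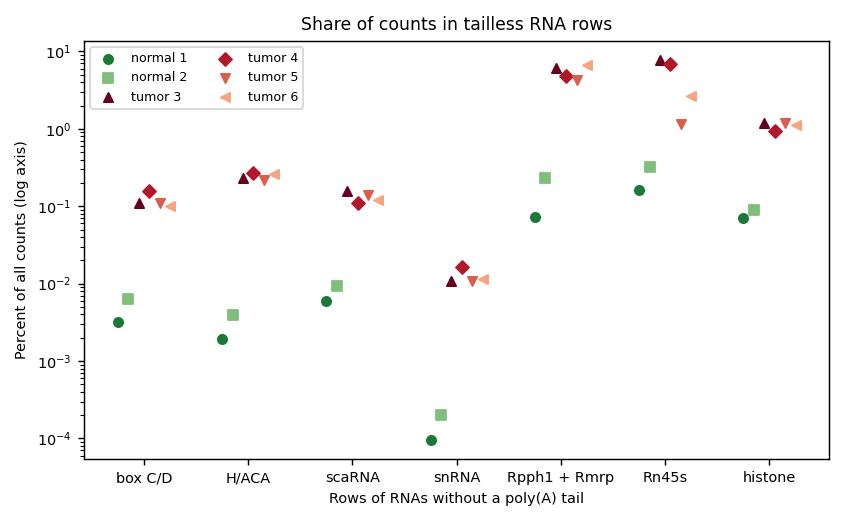
Percent of all counts (log axis) in 7 sets of rows for RNAs without a poly(A) tail, in each library. In every set both normal libraries lie below all 4 tumors, and box C/D snoRNAs run from 0.00316% in normal 1 to 0.159% in tumor 4.

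The ratio of box C/D rows to these RNAs varied. Box C/D counts made 166% and 165% of the H/ACA counts in normal lung, and 47.6%, 59.5%, 50.5% and 39.0% in tumors 3 to 6. The groups did not overlap, although the exact two-sided permutation test as run here gives no p under 0.133 for 2 against 4 libraries. As a share of Rpph1 and Rmrp counts they were 4.29% and 2.78% in normal lung and 1.82%, 3.26%, 2.55% and 1.51% in tumors, where the groups overlapped. With all tailless rows left out of the library size, 63 members were higher, as were 32.9% of all genes tested.

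Libraries of the same group also differed. In normal 2, 55 of the 65 tested members (84.6%) were higher than in normal 1, against 55.6% of all genes tested, and the median ratio of the CPM values was 1.84 against 1.02. Among tumors, 33 members were highest in tumor 4 (28.6% of all genes) and 26 in tumor 6 (25.1%), while 47 were lowest in tumor 5 (20.4%). The median coefficient of variation among tumors was 26.8% for members and 26.7% for all genes, from 7.88% for Snord111 to 60.2% for Snord71. Length was weakly related to the difference, with a median log2 fold change of 4.52 for the 10 members of at least 100 bases and 4.06 for the 55 shorter ones tested. Members that overlap a host exon (29, with 28 higher) and tested members inside introns only (35, with 34 higher) had medians of 4.12 and 4.06. Of all 65 tested members 63 were higher, against 31.3% of all genes tested.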

How the data were processed

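RNA-seq libraries of 2 normal lungs and 4 lung tumors were analysed. Per the labels' protocols, RNA came from flash-frozen tissue, and NEBNext kits were used for poly(A) selection and library preparation. Per the submitters' processing notes, which give neither role nor order, the build was mm9 and the tools included STAR 2.5.4a, Trimmomatic 0.36, Trim Galore, R 3.5.1 and DESeq2 1.22.2. The authors deposited raw counts per gene from TPMCalculator, per the labels. Whether strand was used, and which annotation, is not given in the sources used here, so reads of a snoRNA, its host and an antisense gene may be shared. Of counts from 1 to 10, 61.2% were even.

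Counts were tested with edgeR 4.0.16 (R 4.3.3, quasi-likelihood test, TMM scaling, tissue as the only term), after its filter by group (minimum count 10, minimum total 15), with Benjamini-Hochberg adjustment over 18027 genes and a threshold of 0.05. Hosts, lengths and sequences came from GENCODE vM21 and spans from RefSeq, both on GRCm38, by name. Since the files use mm9, coordinates are left out. On simulated counts of 17794 genes for this comparison the test called 56% of 100 genes with a 4-fold change and 94% of 100 with a 16-fold change. Of 17594 genes without a change it called 11. The changed genes were drawn from those with a mean above 1 CPM, so these rates do not cover members below that mean.

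The members, lists and naming rule were chosen with earlier results of these data known. The rule took the 20 rows of highest mean CPM, rows with a role in rRNA cleavage, imprinted rows, the 10 of smallest p in each direction, the core proteins and the 4 of smallest p in both other lists. Snord1c, Snord7, Snord8, Snord11, Snord23, Snord34, Snord35a, Snord35b, Snord37, Snord38a, Snord66, Snord67, Snord70, Snord71, Snord90, Snord110, Snord111 and Snord123 were named after their values were seen. The hosts of 2 members are not reported here. Alternatives were other scalings, other filters, DESeq2 1.42.0, limma 3.58.1 (voom), tailless rows left out of the library size, and each library left out in turn.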

Additional observations from a re-analysis of the deposited data

How the results depend on the processing

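The count of box C/D rows called higher was between 47 (with at least 1 CPM required in every library of a group, where 47 were tested) and 63 under the alternative scalings, filters and tools, and between 54 and 63 when a library was left out. None was called lower in any of these fits. Of the 63 members, 53 were called in every fit that tested them and 10 lost the call in at least 1 fit, 9 of these on leaving out a single library only, and no direction was reversed. The count of genes called higher, 5638, ranged from 3373 (without normal 1) and 3740 (without normal 2) to 5912 when 1 library was left out, a lone normal library being taken to spread like the tumors. Snhg18 was called lower in every fit, but Ap1g1 was not, so the count of hosts called lower, 2, was 1 with DESeq2, RLE size factors, upper quartile scaling, total counts only, at least 1 CPM in a group or tailless rows left out of the library size, and 1 to 2 when 1 library was left out. The median member log2 fold change ranged from 3.82 to 4.68 and the median difference from the host from 1.17 to 1.98 when 1 library was left out, the highest without normal 2. The median of all genes, 0.015, became 0.14 with upper quartile scaling, 0.12 without a filter and 0.10 with tailless rows left out or DESeq2. The cause of these shifts was not tested. No paired analysis was possible because the normal and tumor libraries share no replicate number. Members with few counts in normal lung, such as those with 3, limit how exactly a fold change is known.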
